A study of Homo sapiens with 12 samples.

Results

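The comparison described is that of H7 cells labelled E2A-/- with wild-type H7 cells at day 3 of directed differentiation into cardiomyocytes, the stage that the labels call cardiac mesoderm. It was chosen by the labels alone: 2 libraries titled as E2A knockout and 2 titled as wild type, of 12 libraries in 6 groups of 2 (both genotypes at days 3, 7 and 15). H7 is an established human embryonic stem cell line, and total RNA was extracted with Trizol, 1 ug of it entering each library, and read on a HiSeq X 10 sequencer. All 4 libraries share the line, the day and the protocol, and only the genotype label separates them. The deposited values, for 17096 gene symbols, are read here as FPKM, fragment counts divided by transcript length and library size, a unit taken from their range and sums since no label names it, and 16295 of these reached 1 FPKM in at least 2 of the 12 libraries and were tested. The sources used here do not say how the edit was made, where it lies, whether the edited line is a single clone or whether the 2 replicates came from separate cultures. The p-values therefore reflect no more than the scatter of these libraries, part or all of which may be technical.

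E2A is the older name of TCF3, one of the E proteins, which are DNA-binding factors of the helix-loop-helix family. E proteins act as dimers, with each other or with tissue-restricted partners such as the mesodermal factors MESP1, HAND1 and TWIST1, on a short DNA motif called the E-box, and ID proteins hold them off DNA by pairing with them. In differentiating pluripotent cells, NODAL, WNT, BMP and FGF signals first induce primitive streak genes and then mesoderm or endoderm genes, while pluripotency genes are shut down and neural genes stay low.

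The 4 day 3 libraries held an estimated 10900000 to 11200000 fragments each, read from the spacing of low values, and the replicates correlated across genes at r = 0.985 in the labelled knockout and 0.988 in wild type. Transcripts encoded in mitochondria took 18.8% and 17.4% of summed FPKM in the labelled knockout, against 16.9% and 15.7% in wild type. The sums themselves differed, at 668618 and 649709 FPKM in the labelled knockout, against 734958 and 724365 FPKM in wild type. The 13 listed mitochondrially encoded genes overlapped, at 104844 and 91782 FPKM in the labelled knockout, against 98941 and 90836 FPKM in wild type. TCF3 stood at 146 and 148 FPKM in the labelled knockout, against 179.5 and 149 FPKM in wild type (log2 change of -0.15, SE 0.19, adjusted p = 0.618), so its mRNA was not lower beyond the spread, and every direction below rests on the genotype label. The mRNA of the other E proteins also did not pass the test. TCF4 stood at 66.9 and 55.2 FPKM in the labelled knockout, against 52.96 and 43.4 FPKM in wild type (log2 change of 0.34, SE 0.24, adjusted p = 0.343), and TCF12 at 40.9 and 23.7 FPKM in the labelled knockout, against 27.2 and 35.1 FPKM in wild type (log2 change of 0.01, SE 0.26, adjusted p = 0.982). In TCF12 the groups overlapped, whereas in TCF4 both labelled knockout libraries lay above both wild-type ones. Of the mesodermal partners tested with them, HAND1 and TWIST1 were lower (below), and MESP1 at 3.97 and 5.22 FPKM in the labelled knockout, against 9.23 and 11.4 FPKM in wild type missed the threshold (log2 change of -1.02, SE 0.35, adjusted p = 0.0599). MESP1 did pass when the 4 day 3 libraries were fitted alone.

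The label of cardiac mesoderm was checked against 7 markers (MESP1, PDGFRA, KDR, APLNR, GATA4, HAND1 and MSX1), all above 1 FPKM. Their values summed to 368 and 347 FPKM in the labelled knockout, against 943 and 949.7 FPKM in wild type, and 5 of the 7 were lower in the labelled knockout and none higher. Primitive streak markers were also still present, 4 of the 5 listed being measured, and summed to 175 and 156 FPKM in the labelled knockout, against 615 and 606 FPKM in wild type. Pluripotency markers were high in both genotypes: 3 of the 4 listed were measured and summed to 2237 and 2162 FPKM in the labelled knockout, against 1912 and 1875 FPKM in wild type. The 3 definitive endoderm markers summed to 45.96 and 48.03 FPKM in the labelled knockout, against 181 and 187 FPKM in wild type, and the 2 measured anterior neural markers of 4, FEZF1 and LHX2, to 29.9 and 32.7 FPKM in the labelled knockout, against 2.15 and 1.10 FPKM in wild type. Only 1 of these 2, FEZF1, was called higher, and it made up nearly all of the sum in the labelled knockout. PECAM1, CDH5 and TEK of endothelium stayed under 1 FPKM in all 4 libraries, the 5 cardiomyocyte markers summed to 5.55 and 4.11 FPKM in the labelled knockout, against 5.80 and 7.56 FPKM in wild type, and the 3 blood markers were not analysed here. The 3 neuron markers summed to 28.9 and 30.7 FPKM in the labelled knockout, against 19.2 and 20.5 FPKM in wild type, with MAP2 higher and STMN2 lower in the labelled knockout. Neural crest markers (2 of 3 measured) summed to 4.64 and 3.34 FPKM in the labelled knockout, against 7.29 and 3.99 FPKM in wild type, and trophoblast or amnion markers (2 of 3 measured) to 3.20 and 1.31 FPKM in the labelled knockout, against 6.46 and 4.01 FPKM in wild type. Of the surface ectoderm markers GRHL3 alone was measured, at 0.321 and 0.779 FPKM in the labelled knockout, against 3.94 and 2.94 FPKM in wild type. In bulk RNA fewer cells of a type and less of its RNA per cell cannot be told apart, and whether shares of such cells take part in the differences below was not tested.

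Changes are given as log2 changes of FPKM + 1, labelled knockout minus wild type, where the added 1 shrinks the change of weakly expressed genes, with the SE of limma and p-values adjusted over all genes tested. Of 16295 genes, 3849 (23.6%) passed the threshold of 0.05: 1550 (9.51%) were higher and 2299 (14.1%) lower in the labelled knockout. The changes of 1056 genes were at least 2-fold, 406 of them higher and 650 lower. The median change of all genes was -0.014. Dropping 1 library moved the count of 3849 by over 1.5 times in each case: it was 2050 without labelled knockout replicate 1, 2512 without replicate 2, 2013 without wild-type replicate 1 and 1998 without wild-type replicate 2. Relative to the geometric mean of the 12 libraries, the sum of nuclear genes was 1.002 and 0.991 in the labelled knockout, against 1.127 in each wild-type library. Rescaling each library to the sum of its nuclear genes shifted the median of all genes by 0.138, to 0.124, and turned the split to 2539 higher and 1545 lower of 4084, or 62.2% higher, against 40.3% with the values as deposited. Small changes of either sign therefore depend on the scaling, and of the genes named below those that passed the test kept their direction under both rescalings tried. TCF3, APOE, ASNS, COL4A2 and VEGFA, none of which passed, changed sign after rescaling to nuclear genes.

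Genes with high levels were lower more often. Of 710 genes in the second highest of 9 level classes, which starts at a mean of 100 FPKM over the 4 libraries, 33.1% were lower and 8.2% higher, and among those of 20 to 50 FPKM 19.9% were lower and 8.9% higher. Among genes of 2 to 5 FPKM the shares were 10.4% lower and 12.5% higher. The 1550 higher genes together held 10.4% and 9.9% of summed FPKM in the labelled knockout, against 5.3% in each wild-type library. For the 2299 lower genes these shares were 17.3% and 18.4% in the labelled knockout, against 26.1% and 26.3% in wild type. Protein-coding genes were lower in 2143 of 13320 cases and higher in 1260. Of 173 long intergenic RNAs 17 were lower and 19 higher.

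**Figure D1:**
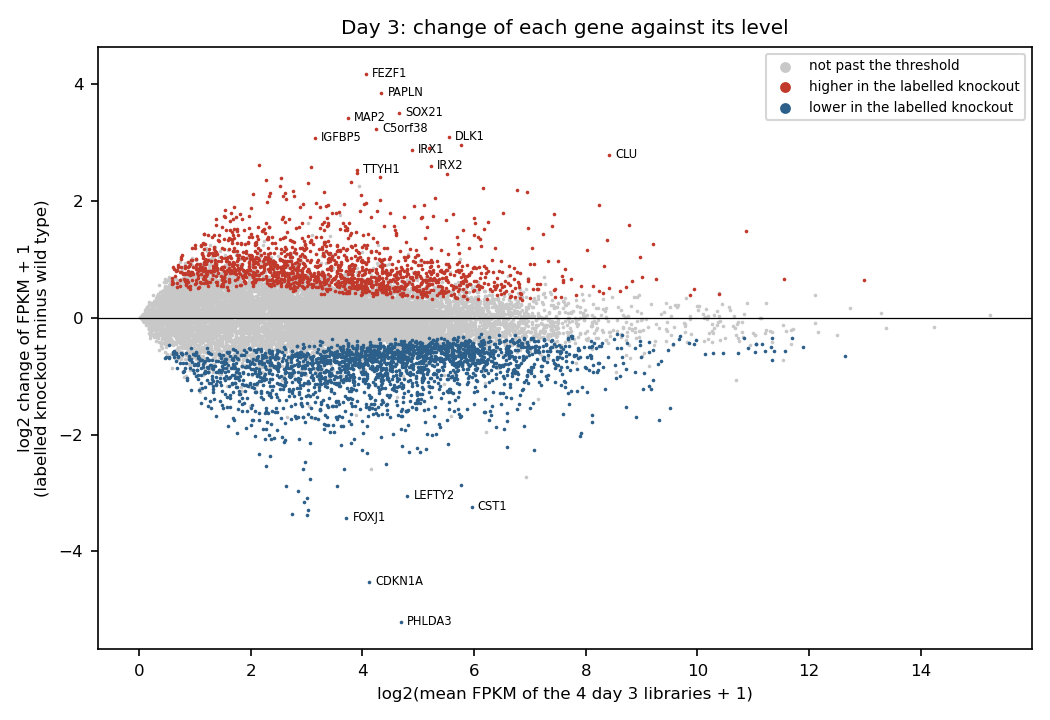
Log2 change of FPKM + 1 at day 3 (labelled knockout minus wild type, vertical axis) against log2 of the mean FPKM + 1 of the 4 libraries (horizontal axis); each point is 1 gene, coloured where it passed the threshold, without symbols that are dates or occur more than once. PHLDA3 and CDKN1A lie lowest, FEZF1 highest, and lower genes are denser than higher ones at high levels.

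FEZF1 (chr7:122301394-122310691), a zinc-finger repressor of the early forebrain, stood at 28.7 and 32.3 FPKM in the labelled knockout, against 1.13 and 0.437 FPKM in wild type (log2 change of 4.17, SE 0.21, adjusted p = 2.88e-06), and its antisense neighbour FEZF1-AS1 at 5.20 and 8.15 FPKM in the labelled knockout, against 0.15 and 0.303 FPKM in wild type. The deposited values do not tell whether strand was used in counting, so reads of this pair cannot be told apart. The 15 largest rises and 15 largest falls were taken only from genes whose groups did not overlap, which held for 65.7% of all genes tested. That the groups are apart in these genes is thus given by the choice. IRX1 (chr5:3596054-3601403) and IRX2 (chr5:2745845-2751662), homeobox factors that lie near each other in the GRCh38 build of GENCODE release 29, were both higher. IRX1 stood at 48.2 and 53.7 FPKM in the labelled knockout, against 5.80 and 6.36 FPKM in wild type (log2 change of 2.87, SE 0.15, adjusted p = 3.59e-06), and IRX2 at 61.4 and 65.4 FPKM in the labelled knockout, against 9.46 and 9.72 FPKM in wild type (log2 change of 2.60, SE 0.15, adjusted p = 4.68e-06). C5orf38, which starts beside IRX2 on the other strand, stood at 33.7 and 32.9 FPKM in the labelled knockout, against 3.60 and 1.88 FPKM in wild type (log2 change of 3.24, SE 0.41, adjusted p = 0.000408). Of the other IRX cluster IRX3 was lower and IRX5 did not pass: IRX3 stood at 38.4 and 42.2 FPKM in the labelled knockout, against 81.7 and 82.6 FPKM in wild type (log2 change of -1.01, SE 0.17, adjusted p = 0.00223), and IRX5 at 7.28 and 7.87 FPKM in the labelled knockout, against 11.1 and 10.2 FPKM in wild type (log2 change of -0.44, SE 0.21, adjusted p = 0.147). DLK1, an imprinted gene for a secreted and membrane-bound relative of NOTCH ligands, stood at 74.2 and 91.7 FPKM in the labelled knockout, against 8.73 and 8.84 FPKM in wild type (log2 change of 3.09, SE 0.13, adjusted p = 1.2e-06). IGFBP5, a binding protein of insulin-like growth factors, stood at 14.98 and 14.6 FPKM in the labelled knockout, against 0.815 and 0.926 FPKM in wild type (log2 change of 3.08, SE 0.14, adjusted p = 1.2e-06). CLU, a secreted chaperone, was the most abundant of the large rises, at 662 and 534 FPKM in the labelled knockout, against 91.02 and 79.7 FPKM in wild type (log2 change of 2.79, SE 0.22, adjusted p = 2.61e-05). The remaining large rises were TMEM64 at 2.90, TTYH1 at 2.53, and FHOD3, a formin of the muscle sarcomere, at 2.58, beside SOX21, MAP2 and PAPLN. RP11-134F2.7, at 78.2 and 112 FPKM in the labelled knockout, against 9.33 and 13.3 FPKM in wild type, passed with adjusted p = 0.0376 and lost the call without any 1 of the 4 libraries.

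The upstream 250 bases of 4 of these risen genes and of CDKN1A, the second largest fall, are shown because TCF3 binds the E-box, and the data hold the mRNA of these genes in cells labelled E2A-/-. They are RefSeq sequences of GRCh38.p14 from the first start listed for each gene, 5′ to 3′ along the gene, at chr5:3595582-3595831 (plus strand), chr5:2751678-2751927 (minus strand), chr7:122304751-122305000 (minus strand), chr13:94712546-94712795 (minus strand) and chr6:36678464-36678713 (plus strand). These RefSeq starts differ from the ends of the GENCODE ranges given above. The FEZF1 window lies inside the range given for FEZF1, and the IRX1 window stops short of that given for IRX1. Capitals mark each match to CANNTG, which reads the same on both strands.
IRX1: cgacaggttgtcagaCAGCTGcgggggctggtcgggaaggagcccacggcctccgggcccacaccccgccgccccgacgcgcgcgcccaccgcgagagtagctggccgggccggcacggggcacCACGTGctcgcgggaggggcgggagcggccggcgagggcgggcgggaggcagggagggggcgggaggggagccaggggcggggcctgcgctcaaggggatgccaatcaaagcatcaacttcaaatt
IRX2: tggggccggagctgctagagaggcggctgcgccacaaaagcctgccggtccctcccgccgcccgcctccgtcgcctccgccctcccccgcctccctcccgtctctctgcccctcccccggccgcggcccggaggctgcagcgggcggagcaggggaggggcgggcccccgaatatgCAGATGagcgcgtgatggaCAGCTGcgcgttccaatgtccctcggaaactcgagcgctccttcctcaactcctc
FEZF1: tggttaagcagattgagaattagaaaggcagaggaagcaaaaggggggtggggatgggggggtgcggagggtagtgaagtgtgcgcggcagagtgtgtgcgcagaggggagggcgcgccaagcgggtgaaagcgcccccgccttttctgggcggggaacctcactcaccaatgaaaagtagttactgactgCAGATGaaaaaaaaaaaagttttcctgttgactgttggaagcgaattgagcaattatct
SOX21: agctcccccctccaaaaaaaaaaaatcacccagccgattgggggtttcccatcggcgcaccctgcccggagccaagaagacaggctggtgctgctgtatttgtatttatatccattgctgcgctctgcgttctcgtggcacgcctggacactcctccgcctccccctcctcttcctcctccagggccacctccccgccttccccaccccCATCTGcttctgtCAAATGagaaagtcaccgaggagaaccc
CDKN1A: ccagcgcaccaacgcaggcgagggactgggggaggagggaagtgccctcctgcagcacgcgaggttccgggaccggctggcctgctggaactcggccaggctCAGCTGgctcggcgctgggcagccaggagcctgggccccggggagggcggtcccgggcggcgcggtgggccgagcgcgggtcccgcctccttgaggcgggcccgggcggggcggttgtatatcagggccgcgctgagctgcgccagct

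Counted back from the RefSeq start of each window, IRX1 has 2 E-boxes, which begin at 235 and 126 bases, and IRX2 has 2, at 74 and 55 bases. FEZF1 has 1 at 59 bases, SOX21 has 2 at 41 and 28 bases, and CDKN1A has 1 at 148 bases. The windows shown thus all hold a match, which is not so for all genes with large changes. Of others with a window at hand, TTYH1 has 2 matches, while FHOD3, IGFBP5, MAP2, PAPLN, QPCT and LINC00261 have 0. Such matches are common: CANNTG is in 62.2% of all 27305 promoters of this length in the table. It is in 54.3% of the promoters of higher genes (1020 found), in 52.7% of those of lower genes (1697 found) and in 53.2% of those of genes that did not pass (8193 found). Among genes changed at least 2-fold, which include those shown, it is in 64.3% of the promoters of higher genes (249 found) and 55.8% of those of lower genes (437 found). The variant CAGCTG is in 11.1% of promoters of higher genes, 13.1% of lower and 12.9% of the other genes, and in 13.8% of all promoters. CAGGTG, searched on both strands, is in 16.6%, 15.6% and 16.0% in the same order, and in 17.5% of all. These last 2 variants are also counted as CANNTG. A match describes the letters of these windows and says nothing about where TCF3 binds.

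The largest falls were PHLDA3 and CDKN1A, both described with the p53 targets below. FOXJ1, a forkhead factor that drives motile cilia genes, stood at 1.68 and 0.833 FPKM in the labelled knockout, against 25.4 and 20.4 FPKM in wild type (log2 change of -3.42, SE 0.23, adjusted p = 1.4e-05). CST1, a secreted inhibitor of cysteine proteases, stood at 8.47 and 13.8 FPKM in the labelled knockout, against 114 and 108 FPKM in wild type (log2 change of -3.24, SE 0.25, adjusted p = 2.35e-05). QPCT, the enzyme glutaminyl cyclase, stood at 0.587 and 0.26 FPKM in the labelled knockout, against 13.97 and 13.5 FPKM in wild type (log2 change of -3.38, SE 0.19, adjusted p = 4.63e-06). Lack of overlap was a condition of the choice for these falls too. C9orf64 at 0.213 and 0.145 FPKM in the labelled knockout, against 11.9 and 10.4 FPKM in wild type and IQCA1 at 0.697 and 0.438 FPKM in the labelled knockout, against 13.9 and 12.1 FPKM in wild type were also among them. LINC00261, a long non-coding RNA next to FOXA2, stood at 1.10 and 0.00101 FPKM in the labelled knockout, against 12.3 and 7.46 FPKM in wild type (log2 change of -2.87, SE 0.58, adjusted p = 0.00571), and with 1 library near 0 its size is uncertain. FAR2P2 (-2.88), FAR2P3 (-3.08) and AGAP7P (-2.97) are pseudogenes with close copies, so their reads may have been split among copies. RN7SL3, at 20.01 and 5.74 FPKM in the labelled knockout, against 55.01 and 133 FPKM in wild type, passed narrowly (adjusted p = 0.0488) and lost the call in 9 of 12 alternatives.

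Among primitive streak transcription factors 8 of 13 tested were lower and 1 higher, with a median of -1.14. The rises came to 2 after rescaling to nuclear genes and in a fit on the day 3 libraries alone. EVX1, a homeobox factor of the posterior streak, stood at 1.97 and 1.67 FPKM in the labelled knockout, against 6.83 and 7.54 FPKM in wild type (log2 change of -1.54, SE 0.18, adjusted p = 0.000327). SP5, a zinc-finger target of WNT signalling, stood at 54.3 and 67.1 FPKM in the labelled knockout, against 136 and 139 FPKM in wild type (log2 change of -1.18, SE 0.15, adjusted p = 0.00044). ZIC2, a zinc-finger factor of epiblast and neural plate, was the member that was higher, at 133 and 131 FPKM in the labelled knockout, against 86.6 and 85.2 FPKM in wild type (log2 change of 0.61, SE 0.10, adjusted p = 0.00191). The groups did not overlap in any of the 3 genes, which held for 65.7% of all genes tested and is a weak criterion with 2 libraries a group. Of ligands and receptors of NODAL signalling 4 of 13 were lower and none higher, or 1 higher after rescaling to nuclear genes, and the median was 0.06. The falls were in the ligand NODAL, its co-receptor TDGF1, the related ligand INHBE, and FURIN, the protease that cuts the NODAL precursor, at 28.96 and 20.7 FPKM in the labelled knockout, against 79.5 and 78.1 FPKM in wild type (log2 change of -1.65, SE 0.31, adjusted p = 0.00411). The receptor ACVR2B (0.17) and the transducers SMAD2 (0.12) and SMAD4 (0.06) did not pass. SMAD7, an inhibitory SMAD, was lower at 8.07 and 7.70 FPKM in the labelled knockout, against 27.8 and 21.7 FPKM in wild type (log2 change of -1.52, SE 0.13, adjusted p = 5.09e-05), and TGFB1 at 15.6 and 18.3 FPKM in the labelled knockout, against 67.7 and 61.9 FPKM in wild type (log2 change of -1.87, SE 0.22, adjusted p = 0.000317).

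Mesoderm and endoderm genes fell side by side. Of the cardiac mesoderm list 13 of 26 were lower and 1, TMEM88, was higher, with a median of -0.80. Higher members numbered 2 with a pseudocount of 0.1, after median-ratio rescaling and without labelled knockout replicate 1 or wild-type replicate 1 and 3 after rescaling to nuclear genes. HAND1, a helix-loop-helix factor of extra-embryonic and heart mesoderm that pairs with E proteins, stood at 20.4 and 24.1 FPKM in the labelled knockout, against 51.2 and 52.4 FPKM in wild type (log2 change of -1.19, SE 0.13, adjusted p = 0.000172). GATA6, a zinc-finger factor of both mesoderm and endoderm, stood at 14.1 and 14.4 FPKM in the labelled knockout, against 40.9 and 45.2 FPKM in wild type (log2 change of -1.53, SE 0.15, adjusted p = 0.00011). RIPPLY3, a co-repressor of T-box factors in the pharyngeal and cardiac region, stood at 1.36 and 1.23 FPKM in the labelled knockout, against 8.70 and 8.22 FPKM in wild type (log2 change of -2.04, SE 0.13, adjusted p = 7.88e-06). Each of these was lower in both labelled knockout libraries than in both wild-type ones. KDR, the VEGF receptor of early vascular and cardiac progenitors, stood at 71.4 and 57.97 FPKM in the labelled knockout, against 50.4 and 48.8 FPKM in wild type and did not pass (log2 change of 0.37, SE 0.14, adjusted p = 0.0782), though it passed as higher after either rescaling. Of the definitive endoderm list 14 of 17 were lower and none higher, with a median of -1.46. FOXA1, a pioneer factor related to FOXA2, stood at 1.44 and 1.08 FPKM in the labelled knockout, against 7.83 and 6.11 FPKM in wild type (log2 change of -1.81, SE 0.19, adjusted p = 0.000171), and APOA2, an apolipoprotein, at 0.756 and 0.539 FPKM in the labelled knockout, against 8.34 and 6.73 FPKM in wild type (log2 change of -2.37, SE 0.15, adjusted p = 7.08e-06). Both labelled knockout libraries were again below wild type. APOE, at 1263 and 1416 FPKM in the labelled knockout, against 1434 and 1499.6 FPKM in wild type, did not pass (log2 change of -0.13, SE 0.14, adjusted p = 0.527).

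Most BMP target genes tested were lower, and most receptors and SMADs of the pathway did not pass the test. Of 17 BMP target genes 12 were lower and none higher, or 1 higher after rescaling to nuclear genes (median -0.95), against 2 lower and 1 higher of 12 receptors and SMADs (median 0.01). The lower ones were ACVR1 and NEO1. None of the 12 was called lower with replicate 2 of the labelled knockout, or with replicate 1 or 2 of wild type, left out; 1 was after rescaling to nuclear genes or with the other labelled knockout library left out. ID4 stood at 6.71 and 5.97 FPKM in the labelled knockout, against 18.9 and 17.8 FPKM in wild type (log2 change of -1.40, SE 0.14, adjusted p = 0.000102). ID2 was the exception among the 4 ID genes, at 109 and 126 FPKM in the labelled knockout, against 87.95 and 99.1 FPKM in wild type (log2 change of 0.32, SE 0.13, adjusted p = 0.0886), and passed as higher after rescaling to nuclear genes. BAMBI, a decoy receptor induced by BMP, stood at 16.4 and 17.9 FPKM in the labelled knockout, against 40.02 and 35.1 FPKM in wild type (log2 change of -1.08, SE 0.10, adjusted p = 8.02e-05). MSX1, a homeobox target, was also lower (log2 change of -1.28, SE 0.14, adjusted p = 0.000185). The ligand BMP4 did not pass, at 24.7 and 25.7 FPKM in the labelled knockout, against 32.5 and 27.2 FPKM in wild type (log2 change of -0.23, SE 0.13, adjusted p = 0.215). Secreted antagonists moved both ways, 6 lower and 2 higher of 12. The rises came to 1 with a filter at 5 FPKM. Lower ones numbered 3 without labelled knockout replicate 1 or wild-type replicate 2. FST, or follistatin, which binds activins and some BMPs, stood at 109 and 121 FPKM in the labelled knockout, against 34.1 and 38.1 FPKM in wild type (log2 change of 1.64, SE 0.14, adjusted p = 3.96e-05). CHRDL1, a chordin-like antagonist, stood at 3.32 and 3.40 FPKM in the labelled knockout, against 0.481 and 0.578 FPKM in wild type (log2 change of 1.51, SE 0.17, adjusted p = 0.000198). CHRD, or chordin itself, stood at 1.67 and 2.47 FPKM in the labelled knockout, against 8.48 and 9.78 FPKM in wild type (log2 change of -1.73, SE 0.19, adjusted p = 0.000203). In each of the 3 the groups were apart, as in 65.7% of all genes tested, FST and CHRDL1 high and CHRD low in the labelled knockout.

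Of 13 WNT ligands 4 were lower and 1 higher (median 0.09). Lower ligands numbered 2 without labelled knockout replicate 2 or wild-type replicate 2. Higher ligands numbered 2 with a pseudocount of 0.1, after rescaling to nuclear genes and without the trend option and 0 without labelled knockout replicate 1 or wild-type replicate 2. WNT3, needed for streak formation in the mouse, stood at 11.9 and 11.96 FPKM in the labelled knockout, against 34.5 and 36.4 FPKM in wild type (log2 change of -1.496, SE 0.20, adjusted p = 0.000515). WNT3A stood at 4.195 and 4.24 FPKM in the labelled knockout, against 9.89 and 10.8 FPKM in wild type (log2 change of -1.12, SE 0.19, adjusted p = 0.00254) and lost its call with a pseudocount of 0.1. Of 18 target genes 10 were lower and 3 higher, with a median of -0.67. For falls the count was 5 without labelled knockout replicate 1 and 6 with any other of the 4 libraries left out. Higher ones numbered 1 without labelled knockout replicate 1 or wild-type replicate 2. LGR5, a receptor that strengthens WNT signals, was lower at 5.04 and 4.56 FPKM in the labelled knockout, against 10.1 and 9.88 FPKM in wild type (log2 change of -0.92, SE 0.18, adjusted p = 0.00532), and so was TCF7, a nuclear effector, with a change of -1.05 (SE 0.17, adjusted p = 0.00177). CCND1, cyclin D1, was higher at 66.2 and 66.1 FPKM in the labelled knockout, against 35.7 and 38.97 FPKM in wild type (log2 change of 0.81, SE 0.12, adjusted p = 0.0011). AXIN2, a feedback gene widely used as a readout of the pathway, stood at 35.7 and 29.1 FPKM in the labelled knockout, against 28.6 and 28.3 FPKM in wild type and did not pass (log2 change of 0.17, SE 0.16, adjusted p = 0.462). In AXIN2 both labelled knockout values lay above both wild-type ones by a small margin. SHISA2, which holds back FGF and WNT receptors inside the cell, was lower at 11.6 and 13.7 FPKM in the labelled knockout, against 39.9 and 40.4 FPKM in wild type (log2 change of -1.60, SE 0.13, adjusted p = 3.71e-05).

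In FGF signalling receptors moved both ways, while feedback genes of the ERK kinases were lower in part. Of 10 FGF receptors and factors downstream of them 3 were higher (FGFR1, FGFR2 and FGFR3) and 4 lower, FGFRL1 among them. FGFR2 and FGFR3 lost the call when some of the libraries were left out singly. FGFR1, the main FGF receptor of pluripotent cells, stood at 505 and 449.9 FPKM in the labelled knockout, against 183 and 194 FPKM in wild type (log2 change of 1.34, SE 0.16, adjusted p = 0.000334). FGF17, a ligand of the FGF8 class, stood at 58.6 and 69.9 FPKM in the labelled knockout, against 186 and 192 FPKM in wild type (log2 change of -1.55, SE 0.20, adjusted p = 0.000447), and FGF11, an intracellular FGF, at 39.6 and 36.1 FPKM in the labelled knockout, against 15.2 and 14.5 FPKM in wild type (log2 change of 1.29, SE 0.12, adjusted p = 8.97e-05). Thus FGFR1 and FGF11 were high and FGF17 low in both labelled knockout libraries. Of 13 ERK feedback genes 7 were lower and 1 higher (median -0.76). SPRY4, a sprouty inhibitor of receptor kinases, stood at 41.1 and 32.8 FPKM in the labelled knockout, against 126 and 113 FPKM in wild type (log2 change of -1.67, SE 0.16, adjusted p = 0.000102). DUSP6, a phosphatase of ERK, stood at 23.6 and 29.8 FPKM in the labelled knockout, against 71.9 and 72.9 FPKM in wild type (log2 change of -1.41, SE 0.12, adjusted p = 3.66e-05). IL17RD, a membrane inhibitor of FGF signalling, stood at 31.8 and 33.01 FPKM in the labelled knockout, against 73.6 and 70.3 FPKM in wild type (log2 change of -1.13, SE 0.12, adjusted p = 0.000147). The groups were separate in all 3, as in 65.7% of all genes tested. SPRY1 stood at 21.98 and 28.4 FPKM in the labelled knockout, against 24.1 and 21.01 FPKM in wild type and did not pass (log2 change of 0.15, SE 0.17, adjusted p = 0.592). ETV5, an ETS factor downstream of FGF, was lower, with a change of -1.39 (SE 0.18, adjusted p = 0.000467).

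Genes of retinoid handling and of guided migration also changed. CYP26A1, the enzyme that breaks down retinoic acid, stood at 88.6 and 96.4 FPKM in the labelled knockout, against 381 and 379.7 FPKM in wild type (log2 change of -2.03, SE 0.32, adjusted p = 0.00164), and ALDH1A3, an enzyme that makes it, at 5.49 and 3.64 FPKM in the labelled knockout, against 22.2 and 21.97 FPKM in wild type (log2 change of -2.07, SE 0.29, adjusted p = 0.000846). The retinoic acid carriers CRABP1 (-0.33) and CRABP2 (-0.27) did not pass. Of 16 retinoid genes 5 were lower and 1 higher. Falls numbered 3 without wild-type replicate 1. For rises the count was 2 after rescaling to nuclear genes and 0 without labelled knockout replicate 2 or wild-type replicate 2. Of 9 chemokine and migration genes 5 were lower and 3 higher, the 5 lower ones all coding for receptors and the 3 higher ones for ligands. The receptor CXCR4 stood at 14.2 and 12.5 FPKM in the labelled knockout, against 55.1 and 57.2 FPKM in wild type (log2 change of -1.99, SE 0.15, adjusted p = 2.49e-05), and its ligand CXCL12 at 45.7 and 39.2 FPKM in the labelled knockout, against 19.1 and 19.9 FPKM in wild type (log2 change of 1.08, SE 0.15, adjusted p = 0.000683). Alongside a lower apelin receptor, its ligand APELA stood at 4.15 and 3.47 FPKM in the labelled knockout, against 0.536 and 0.836 FPKM in wild type (log2 change of 1.52, SE 0.21, adjusted p = 0.000778). S1PR3, a sphingosine phosphate receptor, stood at 5.24 and 5.62 FPKM in the labelled knockout, against 34.8 and 36.1 FPKM in wild type (log2 change of -2.50, SE 0.19, adjusted p = 2.4e-05). Receptors were thus low and ligands high in the labelled knockout for both pairs.

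**Figure D2:**
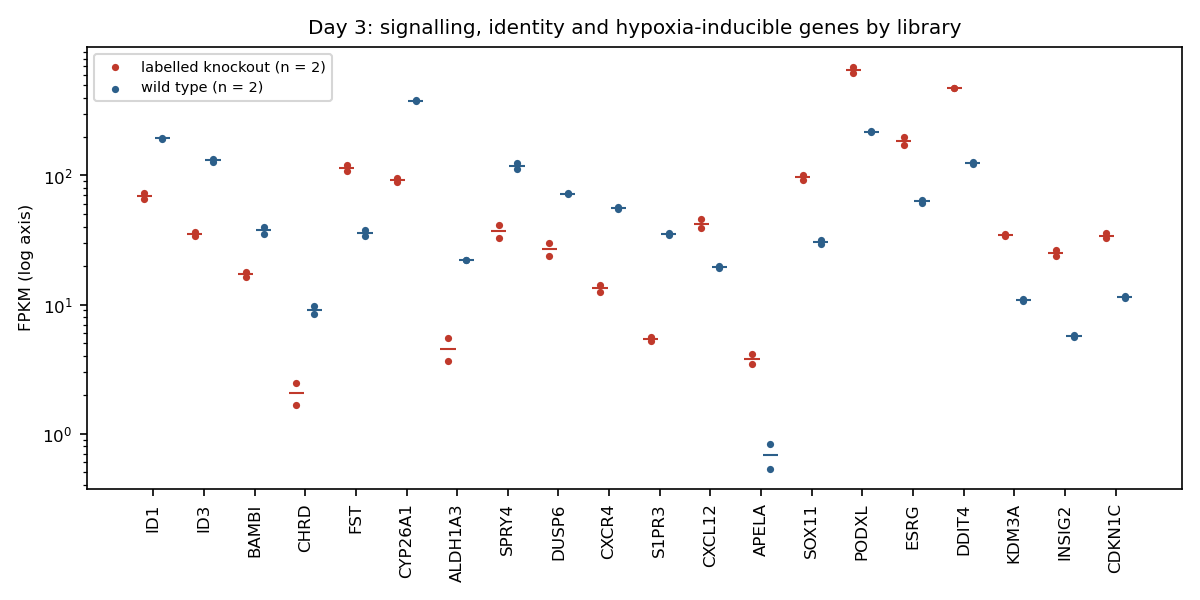
FPKM of 20 signalling, identity and hypoxia-inducible genes at day 3 on a log axis; points are libraries, short bars group means, labelled knockout in red to the left and wild type in blue (2 libraries each). The genes were picked by hand from those past the threshold, so their separation is given by the choice. The groups do not overlap in any of them, as in 65.7% of all genes tested. ID1 through CHRD and CYP26A1 through S1PR3 are low and FST and CXCL12 onward high in the labelled knockout.

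Of 13 core pluripotency genes 7 were higher and 1 lower, with a median of 0.49. PODXL, a sialomucin of the pluripotent cell surface, stood at 692 and 619 FPKM in the labelled knockout, against 216 and 220.0 FPKM in wild type (log2 change of 1.58, SE 0.12, adjusted p = 2.55e-05). ESRG, a non-coding RNA of human pluripotent cells, stood at 199 and 173 FPKM in the labelled knockout, against 64.8 and 61.5 FPKM in wild type (log2 change of 1.54, SE 0.15, adjusted p = 0.000107). LIN28A, an RNA-binding protein that blocks let-7 maturation, stood at 1177 and 1117 FPKM in the labelled knockout, against 824 and 799 FPKM in wild type (log2 change of 0.50, SE 0.10, adjusted p = 0.0043). These 3 were higher in both labelled knockout libraries. POU5F1, the central pluripotency factor, was not: it stood at 851 and 852 FPKM in the labelled knockout, against 1041 and 1034 FPKM in wild type (log2 change of -0.29, SE 0.20, adjusted p = 0.332), below wild type in both libraries but short of the threshold. Of 21 anterior neural genes 9 were higher and 2 lower (median 0.35). SOX11, a factor of neural progenitors, stood at 101.4 and 92.1 FPKM in the labelled knockout, against 31.7 and 29.4 FPKM in wild type (log2 change of 1.63, SE 0.10, adjusted p = 7.08e-06). ZIC5 stood at 20.2 and 19.5 FPKM in the labelled knockout, against 8.33 and 8.92 FPKM in wild type (log2 change of 1.12, SE 0.18, adjusted p = 0.00154). SIX3, a homeobox factor of the forebrain, was on the other side at 1.12 and 0.385 FPKM in the labelled knockout, against 4.12 and 3.95 FPKM in wild type (log2 change of -1.56, SE 0.21, adjusted p = 0.000674). Genes of the neuronal cytoskeleton and synapse were split, 5 higher and 7 lower of 26. DPYSL3, a regulator of growing axons, stood at 280.3 and 256 FPKM in the labelled knockout, against 80.9 and 73.9 FPKM in wild type (log2 change of 1.78, SE 0.10, adjusted p = 3.59e-06), and the adhesion molecule NRCAM at 10.4 and 7.37 FPKM in the labelled knockout, against 1.91 and 0.967 FPKM in wild type (log2 change of 2.03, SE 0.30, adjusted p = 0.0011). STMN2, a tubulin-binding protein of neurons, stood at 5.02 and 5.81 FPKM in the labelled knockout, against 17.8 and 18.9 FPKM in wild type (log2 change of -1.60, SE 0.17, adjusted p = 0.000185), and SYT1, the calcium sensor of synaptic vesicles, at 12.7 and 10.8 FPKM in the labelled knockout, against 34.1 and 41.2 FPKM in wild type (log2 change of -1.60, SE 0.22, adjusted p = 0.000687). Neuronal genes thus did not move as one group.

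Target genes of p53, the transcription factor of the DNA damage response, were lower in 29 of 35 cases and higher in none, with a median of -1.29, beside 14.1% lower and a median of -0.014 over all genes. PHLDA3, an inhibitor of AKT, stood at 0.161 and 0.6 FPKM in the labelled knockout, against 51.6 and 46.9 FPKM in wild type (log2 change of -5.20, SE 0.21, adjusted p = 1.2e-06). CDKN1A, the inhibitor p21 of cyclin-dependent kinases, stood at 0.28 and 0.593 FPKM in the labelled knockout, against 35.98 and 28.3 FPKM in wild type (log2 change of -4.53, SE 0.20, adjusted p = 1.2e-06). Both labelled knockout libraries held under 1 FPKM of these, while both wild-type libraries were far higher. BTG2, an anti-proliferative gene, stood at 12.3 and 10.3 FPKM in the labelled knockout, against 57.8 and 55.98 FPKM in wild type (log2 change of -2.24, SE 0.13, adjusted p = 5.53e-06). AEN, a nuclease of apoptosis, stood at 7.96 and 8.79 FPKM in the labelled knockout, against 39.5 and 44.5 FPKM in wild type (log2 change of -2.20, SE 0.16, adjusted p = 2.05e-05). BAX, which opens the outer mitochondrial membrane, stood at 39.4 and 53.2 FPKM in the labelled knockout, against 146 and 142 FPKM in wild type (log2 change of -1.63, SE 0.17, adjusted p = 0.000158). These 3 were lower without overlap of the groups, which 65.7% of all genes tested also lacked. DDB2, which finds ultraviolet damage in DNA, changed by -1.65 (SE 0.15, adjusted p = 5.21e-05), RPS27L by -1.85 (SE 0.24, adjusted p = 0.000534), and BBC3, the killer protein PUMA, by -1.34 (SE 0.18, adjusted p = 0.000595). TNFRSF10C, a decoy receptor for the death ligand TRAIL, was among the 15 largest falls (log2 change of -2.76, SE 0.29, adjusted p = 0.000159). A few targets did not pass. MDM2, the ubiquitin ligase that p53 induces against itself, stood at 33.4 and 24.9 FPKM in the labelled knockout, against 46.8 and 43.1 FPKM in wild type (log2 change of -0.62, SE 0.25, adjusted p = 0.0936), and CCNG1 at 122 and 139 FPKM in the labelled knockout, against 135 and 121 FPKM in wild type (log2 change of 0.03, SE 0.12, adjusted p = 0.89). MDM4, a relative of MDM2, was higher at 39.4 and 31.7 FPKM in the labelled knockout, against 16.9 and 19.9 FPKM in wild type (log2 change of 0.91, SE 0.21, adjusted p = 0.0108), a call lost without labelled knockout replicate 1 and without wild-type replicate 1.

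**Figure D3:**
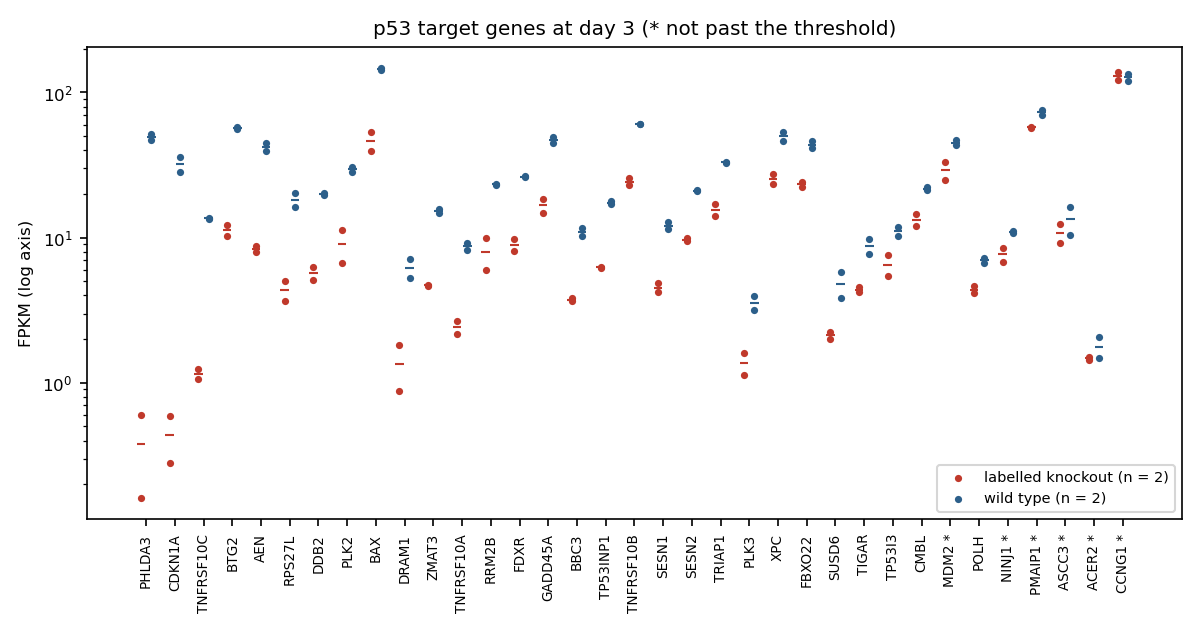
FPKM of the 35 tested p53 target genes at day 3 on a log axis, ordered by log2 change; points are libraries and short bars group means, labelled knockout in red to the left and wild type in blue (2 libraries each). Of the 35 genes 29 passed as lower, and PHLDA3 and CDKN1A at the left end are the furthest apart; an asterisk marks genes that did not pass.

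Other cell cycle genes included both rises and falls. Of 26 genes of DNA replication 3 were lower and 1 higher, below the shares over all genes. The 3 lower ones became 1 without wild-type replicate 1 or wild-type replicate 2. The 1 higher one was lost, with a count of 0 without the trend option, in a fit on the day 3 libraries alone and with any 1 of the 4 libraries left out. Of 26 mitosis genes 6 were higher and 2 lower. Rises numbered 11 after rescaling to nuclear genes, 1 without labelled knockout replicate 1 or wild-type replicate 1 and 2 without wild-type replicate 2. Lower ones numbered 0 after rescaling to nuclear genes and without labelled knockout replicate 2 or wild-type replicate 1 and 1 without the trend option and without labelled knockout replicate 1 or wild-type replicate 2. TOP2A, the topoisomerase that untangles chromosomes, stood at 72.5 and 63.6 FPKM in the labelled knockout, against 41.1 and 35.5 FPKM in wild type (log2 change of 0.81, SE 0.14, adjusted p = 0.00206). CDKN1C, an imprinted CDK inhibitor, went opposite to CDKN1A, at 32.6 and 35.9 FPKM in the labelled knockout, against 11.3 and 11.7 FPKM in wild type (log2 change of 1.49, SE 0.14, adjusted p = 7.45e-05). Other imprinted genes moved both ways, 4 higher and 5 lower of 21: IGF2, a growth factor, stood at 5.08 and 5.61 FPKM in the labelled knockout, against 13.6 and 13.1 FPKM in wild type (log2 change of -1.18, SE 0.14, adjusted p = 0.000334), and H19, the non-coding RNA beside it, at 6.90 and 8.98 FPKM in the labelled knockout, against 14.3 and 15.4 FPKM in wild type (log2 change of -0.83, SE 0.13, adjusted p = 0.00176). PHLDA2, a placental growth inhibitor, had a log2 change of -1.71 (SE 0.27, adjusted p = 0.00141).

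Of 23 hypoxia-inducible genes 13 were higher and 1 lower, with a median of 0.61. For rises the count was 8 without wild-type replicate 1. For falls the count was 0 with no filter, after rescaling to nuclear genes, in a fit on the day 3 libraries alone and with any 1 of the 4 libraries left out. DDIT4, an inhibitor of the growth kinase mTORC1, stood at 477 and 477 FPKM in the labelled knockout, against 123 and 126 FPKM in wild type (log2 change of 1.93, SE 0.10, adjusted p = 2.88e-06). KDM3A, a histone demethylase, stood at 34.9 and 33.7 FPKM in the labelled knockout, against 10.6 and 11.1 FPKM in wild type (log2 change of 1.58, SE 0.11, adjusted p = 1.43e-05). INSIG2, which holds back sterol synthesis, stood at 26.2 and 23.8 FPKM in the labelled knockout, against 5.82 and 5.61 FPKM in wild type (log2 change of 1.95, SE 0.24, adjusted p = 0.000337). The groups were apart in all 3, as in 65.7% of all genes tested. SLC2A1, the glucose transporter GLUT1, stood at 416 and 418 FPKM in the labelled knockout, against 225 and 228 FPKM in wild type (log2 change of 0.88, SE 0.14, adjusted p = 0.00145). Genes of this kind that did not pass include VEGFA, at 119 and 113 FPKM in the labelled knockout, against 119.8 and 120.1 FPKM in wild type (log2 change of -0.05, SE 0.14, adjusted p = 0.852), and PDK1 (0.03). In glycolysis 7 of 23 were higher and 1 lower. Rises numbered 11 after rescaling to nuclear genes. The single lower one became 2 after median-ratio rescaling and in a fit on the day 3 libraries alone. PFKFB3, which makes the activator of phosphofructokinase, stood at 52.2 and 45.96 FPKM in the labelled knockout, against 18.1 and 18.6 FPKM in wild type (log2 change of 1.37, SE 0.17, adjusted p = 0.000357). The core enzymes GAPDH (-0.20), ENO1 (0.13) and ALDOA (0.04) did not pass.

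Housekeeping and stress pathways were lower in part. Of 24 genes of cholesterol synthesis and uptake 15 were lower and none higher (median -0.62). Falls numbered 9 without wild-type replicate 2. DHCR7, an enzyme of a late step, stood at 55.2 and 45.8 FPKM in the labelled knockout, against 112 and 101.3 FPKM in wild type (log2 change of -1.07, SE 0.16, adjusted p = 0.00115), lower in each labelled knockout library than in wild type. Of 20 genes of the unfolded protein response 11 were lower and 1 higher (median -0.62). XBP1, a transcription factor of that response, stood at 76.7 and 64.02 FPKM in the labelled knockout, against 157 and 136 FPKM in wild type (log2 change of -1.05, SE 0.17, adjusted p = 0.00166). ATF6, a sensor in the endoplasmic reticulum membrane, was the higher one, at 6.45 and 6.62 FPKM in the labelled knockout, against 3.21 and 3.07 FPKM in wild type (log2 change of 0.86, SE 0.16, adjusted p = 0.00332). Of 17 genes of amino acid stress 9 were lower and 2 higher, with SLC7A5, an importer of large amino acids, at 25.8 and 25.7 FPKM in the labelled knockout, against 76.6 and 78.8 FPKM in wild type (log2 change of -1.56, SE 0.16, adjusted p = 0.000113). Of the 2 higher ones the count was 1 without wild-type replicate 1. ASNS, the asparagine synthetase often read as a mark of this response, did not pass (log2 change of -0.03, SE 0.14, adjusted p = 0.893). In the list of NRF2 and oxidative genes 9 of 18 were lower and none higher, or 2 higher after rescaling to nuclear genes. Lower ones numbered 5 without labelled knockout replicate 1 or wild-type replicate 2. CAT, or catalase, stood at 0.432 and 1.10 FPKM in the labelled knockout, against 4.98 and 5.47 FPKM in wild type (log2 change of -1.84, SE 0.27, adjusted p = 0.000919), and GPX4, which repairs oxidised lipids, at 239.9 and 279.8 FPKM in the labelled knockout, against 403 and 425 FPKM in wild type (log2 change of -0.67, SE 0.12, adjusted p = 0.00267).

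Proteasome and ribosome genes shifted by less. Of 37 proteasome subunits 17 were lower and none higher (median -0.38). For falls the count was 9 after rescaling to nuclear genes and without wild-type replicate 1 or wild-type replicate 2, 11 with the first labelled knockout library left out and 10 with the other one left out. PSMB5, a catalytic subunit, stood at 87.8 and 96.1 FPKM in the labelled knockout, against 169.5 and 163 FPKM in wild type (log2 change of -0.85, SE 0.11, adjusted p = 0.00062). Of 85 ribosomal protein genes 18 were lower and none higher, or 1 higher after rescaling to nuclear genes (median -0.22). This median moved to -0.04 after that rescaling. Over all genes of the highest level class 25.0% were lower (median -0.218), and of the class below it 33.1% (median -0.239). Whether the ribosomal list shifted apart from abundant genes in general was not tested. Falls numbered 8 after rescaling to nuclear genes, 4 without labelled knockout replicate 1 and 5 without wild-type replicate 1 or wild-type replicate 2. The lowest member was RPS27L, a paralogue that also stands among the p53 targets above. Of 80 nuclear genes of the respiratory chain 25 were lower and 2 higher (median -0.26, or -0.08 after rescaling to nuclear genes). Lower ones numbered 14 after rescaling to nuclear genes, 11 without labelled knockout replicate 1, 13 without wild-type replicate 1 and 12 without wild-type replicate 2. Higher ones numbered 1 with a filter at 5 FPKM and 4 after rescaling to nuclear genes. Over all genes with a mean of 50 to 100 FPKM 27.2% were lower (median -0.157), and of the class above it 33.1% (median -0.239). Whether the respiratory chain list shifted apart from abundant genes in general was not tested either. COX6A1, a subunit of cytochrome oxidase, stood at 193 and 180.4 FPKM in the labelled knockout, against 363 and 328 FPKM in wild type (log2 change of -0.89, SE 0.13, adjusted p = 0.00101). The mitochondrially encoded MT-ND5 was higher, at 4081 and 3287 FPKM in the labelled knockout, against 2379 and 2254 FPKM in wild type (log2 change of 0.66, SE 0.13, adjusted p = 0.00485), and MT-CO1 did not pass (log2 change of 0.08, SE 0.17, adjusted p = 0.767).

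Genes of antigen presentation were lower as well. Of 26 interferon-inducible and HLA genes 11 were lower and 1 higher (median -0.65). HLA-B stood at 14.2 and 16.2 FPKM in the labelled knockout, against 66.5 and 59.3 FPKM in wild type (log2 change of -1.98, SE 0.14, adjusted p = 1.81e-05), and HLA-C at 13.5 and 17.4 FPKM in the labelled knockout, against 44.6 and 43.6 FPKM in wild type (log2 change of -1.46, SE 0.16, adjusted p = 0.00021). Both code for class I heavy chains, which present peptides at the cell surface, and share long stretches of sequence, so reads may have been split between them. BST2, a membrane protein that tethers viruses, was the member that was higher, at 105 and 89.6 FPKM in the labelled knockout, against 28.1 and 29.5 FPKM in wild type (log2 change of 1.72, SE 0.14, adjusted p = 3.24e-05).

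Adhesion and matrix genes changed member by member. In the list of mesenchymal transition factors and cadherins 8 of 20 were lower and 2 higher. The rises came to 1 without labelled knockout replicate 1, wild-type replicate 1 or wild-type replicate 2. SNAI1, a repressor of epithelial genes, stood at 7.84 and 9.49 FPKM in the labelled knockout, against 22.2 and 22.1 FPKM in wild type (log2 change of -1.26, SE 0.16, adjusted p = 0.000425), and TWIST1, a helix-loop-helix factor that pairs with E proteins, at 8.29 and 6.73 FPKM in the labelled knockout, against 19.8 and 28.05 FPKM in wild type (log2 change of -1.54, SE 0.24, adjusted p = 0.00137). CDH2, or N-cadherin, stood at 135 and 124 FPKM in the labelled knockout, against 245 and 237 FPKM in wild type (log2 change of -0.89, SE 0.10, adjusted p = 0.000185). These were low in both labelled knockout libraries. The epithelial adhesion molecule EPCAM was lower too (log2 change of -1.15, SE 0.15, adjusted p = 0.000544), and CDH1, or E-cadherin, did not pass (log2 change of -0.28, SE 0.26, adjusted p = 0.495). Markers of both epithelial and mesenchymal cells were thus among the falls. KRT8, a keratin of simple epithelia, stood at 316 and 264 FPKM in the labelled knockout, against 979.8 and 978 FPKM in wild type (log2 change of -1.76, SE 0.30, adjusted p = 0.00222). Of 29 collagen genes 11 were lower and 4 higher (median -0.25). For rises the count was 2 without labelled knockout replicate 1, labelled knockout replicate 2 or wild-type replicate 1. COL6A1 stood at 354 and 332 FPKM in the labelled knockout, against 792 and 760.5 FPKM in wild type (log2 change of -1.18, SE 0.16, adjusted p = 0.00068), and COL2A1 at 12.5 and 10.2 FPKM in the labelled knockout, against 41.4 and 44.2 FPKM in wild type (log2 change of -1.83, SE 0.18, adjusted p = 0.000109). The basement membrane chain COL4A2, at 39.96 and 42.7 FPKM in the labelled knockout, against 43.96 and 39.2 FPKM in wild type, did not pass (log2 change of -0.01, SE 0.12, adjusted p = 0.978). Of 54 protocadherins 17 were lower and 3 higher (median -0.24). The falls came to 10 with a filter at 5 FPKM. Rises numbered 1 with a filter at 5 FPKM, in a fit on the day 3 libraries alone and without labelled knockout replicate 1 or wild-type replicate 2 and 5 after rescaling to nuclear genes. PCDHB5 of the clustered kind stood at 4.63 and 4.73 FPKM in the labelled knockout, against 26.4 and 28.4 FPKM in wild type (log2 change of -2.32, SE 0.17, adjusted p = 1.72e-05). PCDH18, outside the clusters, stood at 16.2 and 13.4 FPKM in the labelled knockout, against 4.57 and 3.67 FPKM in wild type (log2 change of 1.62, SE 0.15, adjusted p = 7.58e-05). Reads of clustered members with near-identical exons may have been split among them.

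Receptors and ligands of axon and cell guidance changed in both directions. Of 31 semaphorins, plexins and neuropilins 8 were lower and 3 higher, and of 19 slit, robo and netrin genes with their relatives 8 and 3. Over all genes tested 14.1% were lower and 9.51% higher, so the rises among the 31 are near the share of all genes. Higher semaphorin and plexin genes numbered 6 after rescaling to nuclear genes. Lower slit, robo and netrin genes numbered 5 without wild-type replicate 2. Of higher slit, robo and netrin genes the count was 1 with any 1 of the 4 libraries left out. PLXNA2, a semaphorin receptor, stood at 37.9 and 30.7 FPKM in the labelled knockout, against 114 and 121 FPKM in wild type (log2 change of -1.76, SE 0.19, adjusted p = 0.000203). NTN1, or netrin-1, stood at 10.3 and 10.2 FPKM in the labelled knockout, against 30.6 and 30.6 FPKM in wild type (log2 change of -1.49, SE 0.17, adjusted p = 0.000266). FLRT3, a ligand of UNC5 receptors, stood at 3.40 and 2.997 FPKM in the labelled knockout, against 14.5 and 14.8 FPKM in wild type (log2 change of -1.90, SE 0.19, adjusted p = 0.000113). All were low in the labelled knockout. LINGO1, a co-receptor on neurons, was higher at 18.3 and 17.99 FPKM in the labelled knockout, against 5.22 and 5.70 FPKM in wild type (log2 change of 1.57, SE 0.13, adjusted p = 4.03e-05). EPHA2, an ephrin receptor, stood at 16.98 and 17.6 FPKM in the labelled knockout, against 63.9 and 62.8 FPKM in wild type (log2 change of -1.82, SE 0.14, adjusted p = 2.29e-05), and EFNA3, an ephrin-A ligand, at 21.3 and 21.1 FPKM in the labelled knockout, against 8.37 and 8.87 FPKM in wild type (log2 change of 1.21, SE 0.22, adjusted p = 0.0031).

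Of 22 genes of DNA methylation and the polycomb complexes 7 were higher and none lower (median 0.38). Rises numbered 2 without labelled knockout replicate 1, 4 without labelled knockout replicate 2 and 3 without wild-type replicate 1 or wild-type replicate 2. MTF2, a polycomb cofactor, stood at 54.8 and 44.1 FPKM in the labelled knockout, against 24.2 and 25.3 FPKM in wild type (log2 change of 0.96, SE 0.14, adjusted p = 0.00085), and TET1, which oxidises methylated cytosine, at 19.9 and 17.9 FPKM in the labelled knockout, against 10.5 and 11.4 FPKM in wild type (log2 change of 0.74, SE 0.14, adjusted p = 0.00491). The methyltransferases DNMT3A (0.10) and DNMT1 (0.08) did not pass. Of 472 genes named ZNF 55 were higher and 16 lower (median 0.13), or near the background of 9.51% for rises and below that of 14.1% for falls. Higher ones numbered 93 after rescaling to nuclear genes, 12 without labelled knockout replicate 1, 19 without wild-type replicate 1 and 17 without wild-type replicate 2. Falls numbered 8 after rescaling to nuclear genes and without labelled knockout replicate 1 or wild-type replicate 2 and 7 without labelled knockout replicate 2 or wild-type replicate 1. ZNF160 stood at 44.2 and 36.2 FPKM in the labelled knockout, against 18.4 and 19.5 FPKM in wild type (log2 change of 1.04, SE 0.15, adjusted p = 0.000919).

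**Figure D4:**
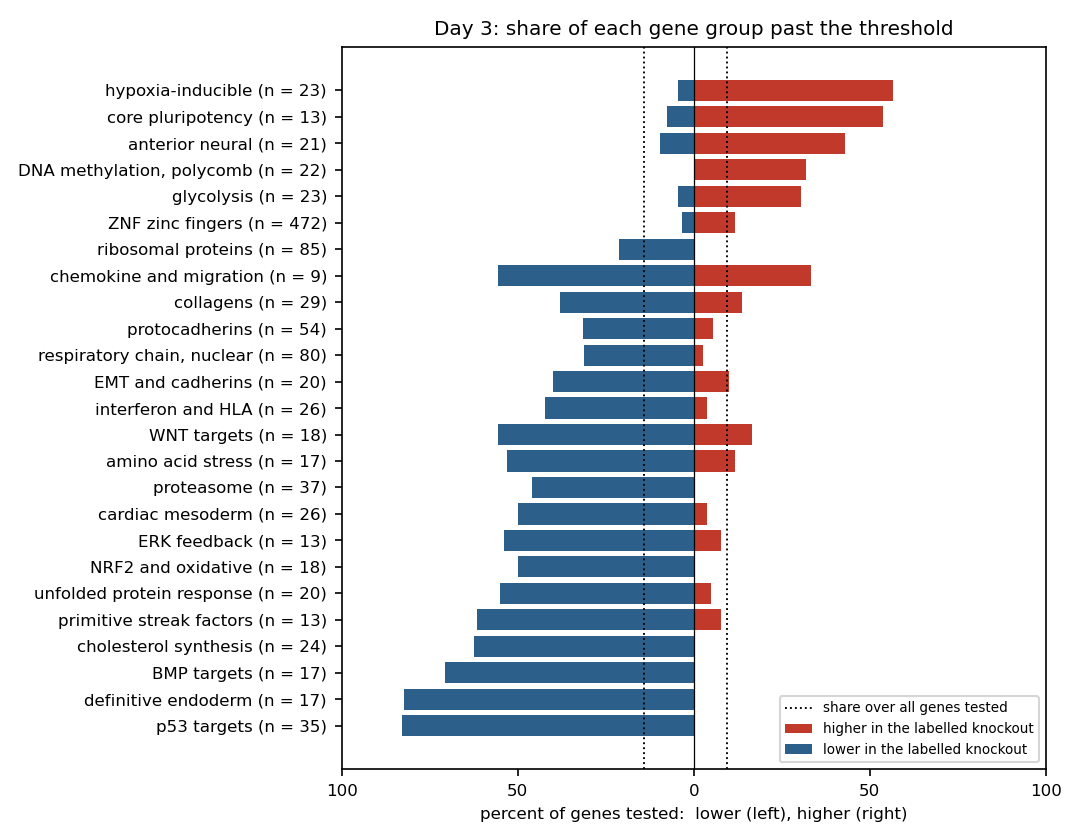
Percent of the tested genes of 25 gene groups that were higher (red, right of 0) or lower (blue, left of 0) in the labelled knockout at day 3, with n the genes tested and dotted lines the shares over all 16295 genes, 9.51% higher and 14.1% lower. The 25 groups were picked by hand from 86 lists. Lists with few changes, such as the tricarboxylic acid cycle (1 higher and 1 lower of 19), are among those not shown. The p53 targets (29 of 35) and definitive endoderm genes (14 of 17) reach furthest left and hypoxia-inducible genes (13 of 23) furthest right. Some groups share genes.

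By position the changes were spread over all chromosomes. The share of lower genes ran between 10.3% on chromosome 13 and 19.5% on chromosome 20, and that of higher genes between 7.3% on chromosome 22 and 13.5% on chromosome 10. Chromosome medians lay between -0.143 (chromosome 20) and 0.044 (chromosome 15).

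The day 3 differences were set beside those of the later days, which use other libraries. At day 7, 42.0% of the genes tested passed (22.1% higher and 19.9% lower), and at day 15, 35.1% (18.9% higher and 16.2% lower). Of the 1550 genes higher at day 3, 733 (47.3%) were also higher at day 7, which is 20.3% of the genes higher then, and 188 (12.1%) were lower. Of the 2299 genes lower at day 3, 1107 (48.2%) were lower at day 7 as well, or 34.1% of the genes lower then, and 180 (7.8%) were higher. At day 15 the shares in the same direction were 33.7% of the higher and 28.6% of the lower genes, and 17.0% of the lower genes were higher. That last share is near the 18.9% of all genes tested that were higher at day 15. In the same direction on all 3 days were 294 higher and 438 lower genes. The difference of effects itself passed for 3285 genes (20.2%) between days 3 and 7, and for 4153 (25.5%) between days 3 and 15. Without wild-type replicate 1 of day 3 the first of these counts was 1973, and without replicate 2 it was 2068.

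IRX1 and IRX2 kept a high level at every day, with log2 changes for IRX1 of 2.87, 2.64 and 3.33 at days 3, 7 and 15. MIAT, a long non-coding RNA of neural tissue and heart, stood at 85.8 and 67.5 FPKM in the labelled knockout, against 14.1 and 12.1 FPKM in wild type at day 3 (2.45, 3.46 and 2.48 over the 3 days). On the low side QPCT changed by -3.38, -3.43 and -2.34, APOA2 by -2.37, -2.28 and -2.43, and IAH1, an esterase, by -2.60, -3.50 and -2.60. ACOT2, a mitochondrial thioesterase, stood at 0.478 and 0.428 FPKM in the labelled knockout, against 5.66 and 7.07 FPKM in wild type at day 3 and was lower at the other days too (-2.72 and -3.34). The most lasting genes were picked from those that passed the test on each day with the same sign. That they passed and kept their sign is therefore given by the choice.

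The effects of other genes differed between days 3 and 7, some with opposite signs. TPBG, a membrane glycoprotein of the trophoblast that modulates WNT signals, was lower at day 3, at 12.5 and 11.6 FPKM in the labelled knockout, against 21.6 and 22.8 FPKM in wild type (log2 change of -0.83, SE 0.12, adjusted p = 0.000802), and higher at day 7, at 179 and 195 FPKM in the labelled knockout, against 14.8 and 15.3 FPKM in wild type, and the effects differed by -4.38 (adjusted p = 8.5e-07). SP8, a zinc-finger factor of forebrain and limb, did not pass at day 3 (-0.23) and was higher at day 7 by 3.75 (difference -3.98, adjusted p = 5.53e-06). CDH11, a mesenchymal cadherin, changed by -1.13 at day 3 and 2.50 at day 7, and its day 3 call was lost without wild-type replicate 1. In the other direction FABP3, the fatty acid carrier of heart muscle, was higher at day 3, at 11.2 and 8.79 FPKM in the labelled knockout, against 2.91 and 3.55 FPKM in wild type (log2 change of 1.37, SE 0.19, adjusted p = 0.000753), and lower at day 7, at 4.96 and 5.29 FPKM in the labelled knockout, against 46.8 and 59.6 FPKM in wild type (difference 4.51, adjusted p = 6.01e-06). FAM162A, a mitochondrial protein induced by hypoxia, went the same way (1.26 at day 3 and -2.43 at day 7), as did INSIG2 (1.95 and -1.58) and DLK1 (3.09 and -0.80). GPR157 had the largest positive difference (4.98) but did not pass at day 3, where its level was 38.2 and 1.92 FPKM in the labelled knockout, against 1.80 and 2.56 FPKM in wild type, so 1 labelled knockout library carries it.

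**Figure D5:**
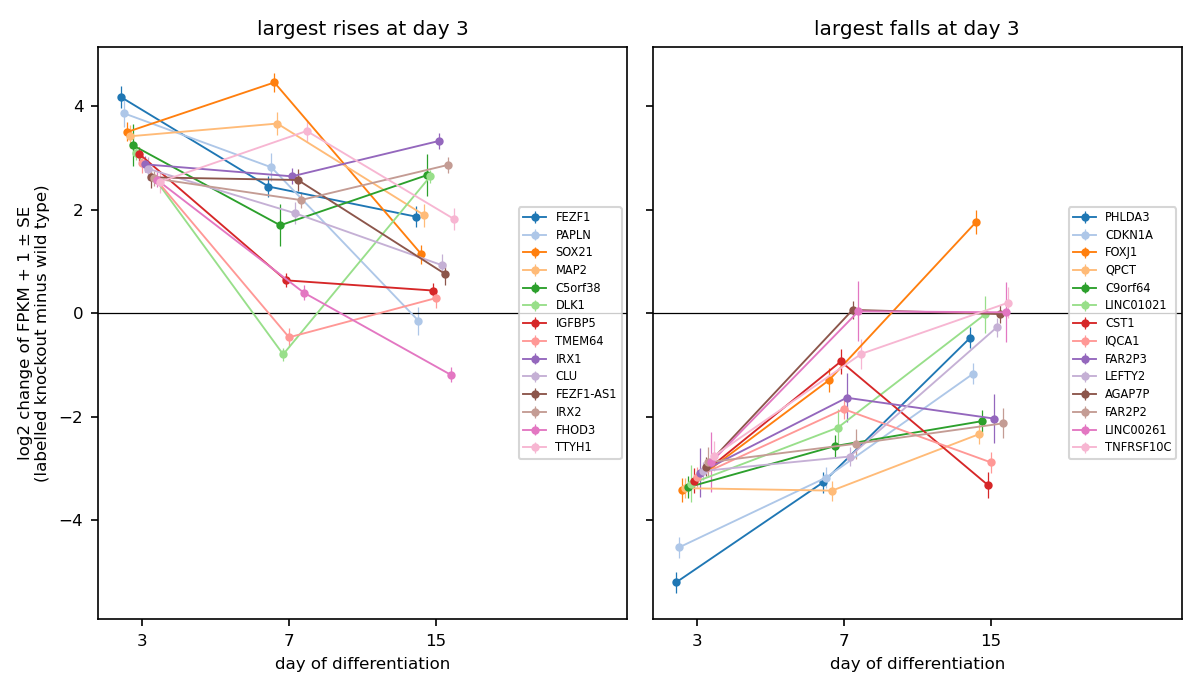
Log2 change of FPKM + 1 (labelled knockout minus wild type, ± SE of limma, 2 libraries a group) at days 3, 7 and 15 for 14 of the 15 largest rises (left) and 14 of the 15 largest falls (right) of day 3, without RP11-134F2.7 and RN7SL3. IRX1 and IRX2 stay high and QPCT low on all days, while DLK1 is below 0 at day 7 and FOXJ1 above 0 at day 15.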

How the data were processed

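Total RNA of 12 libraries was measured by RNA-seq. The submitters' processing notes name BWA and the build hg38 (GRCh38), with no role. They do not state the program that computed the values, the annotation or the use of strand. The deposited values were taken as FPKM, from their decimals and their sums (577716 to 734958 per library); all 17096 symbols are above 0 in all 12 libraries. At day 3 low values were spaced as whole fragments in 66.7% to 78.7% of 39 to 47 values per library (within 0.1 of a whole number). This gave an estimate of 10900000 to 11200000 fragments per library but is too few for counts to be rebuilt, so no count test was run.

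Genes with at least 1 FPKM in 2 of the 12 libraries (16295) entered limma 3.58.1 (R 4.3.3) with the trend option on log2(FPKM + 1), with 1 mean for each of the 6 groups, and Benjamini-Hochberg adjustment over all of them at 0.05. All libraries share 1 estimate of the spread. The fit was tested on simulated data. Tables were made with Python 3.11.15, pandas 2.3.3 and numpy 2.4.6. The members and gene lists were chosen with earlier results of these data known, and lists are described by counts and medians, with no test of their own. The genes named are TCF3, TCF4, TCF12 and ID1 to ID4; of each list, up to 5 that passed, taken by adjusted p, and up to 3 others, taken by level; the 15 largest rises and 15 largest falls whose higher group averaged 5 FPKM or more, without overlap; the 10 most abundant genes past the threshold; the 5 most lasting over the 3 days in each direction; and the 5 largest differences between days 3 and 7 of each sign. Cell type markers and a few members listed as past the threshold are named beside them, by their list alone. Symbols turned into dates (22) or occurring more than once (9) are not named.

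Alternatives were a pseudocount of 0.1, no filter, a filter at 5 FPKM, rescaling to median ratios or to the sum of nuclear genes, no trend, day 3 alone, the replicate number as a block, and each library left out. A rescaling to nuclear genes divides by the summed FPKM of genes not encoded in mitochondria. Gene positions are from GENCODE release 29 (15370 symbols placed), and promoters from RefSeq (GRCh38.p14).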

Additional observations from a re-analysis of the deposited data

Results flagged for a closer look

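Among 37 genes examined (the 15 largest rises and 15 largest falls of day 3, and the E protein and ID genes) 18 had a day 3 effect that differed from that of day 7, beside 20.2% of all genes tested. As most were picked for a large effect at day 3, that choice favours a smaller one at day 7. For these 18 the difference between the labelled knockout and wild type at day 3 differed from that at day 7 in a test of the difference itself, with an adjusted p of at most 0.0418 by limma over all genes. Values are log2 changes of FPKM + 1, and differences are day 3 minus day 7. The grouping goes by sign alone, and a day 7 change close to 0, such as that of ID4, is not read as an effect. Below 0 on both days, and more so at day 3, were CDKN1A (-4.53 at day 3, -3.18 at day 7, difference -1.35), CST1 (-3.24 at day 3, -0.94 at day 7, difference -2.30), FOXJ1 (-3.42 at day 3, -1.30 at day 7, difference -2.13), ID3 (-1.87 at day 3, -0.71 at day 7, difference -1.16), ID4 (-1.40 at day 3, -0.13 at day 7, difference -1.27), IQCA1 (-3.16 at day 3, -1.86 at day 7, difference -1.31), PHLDA3 (-5.20 at day 3, -3.27 at day 7, difference -1.93) and TNFRSF10C (-2.76 at day 3, -0.79 at day 7, difference -1.97). Below 0 at day 3 and close to 0 at day 7 were AGAP7P (-2.97 at day 3, 0.06 at day 7, difference -3.03) and LINC00261 (-2.87 at day 3, 0.03 at day 7, difference -2.91). Above 0 on both days, and more so at day 3, were FEZF1 (4.17 at day 3, 2.44 at day 7, difference 1.72), FHOD3 (2.58 at day 3, 0.40 at day 7, difference 2.18) and IGFBP5 (3.08 at day 3, 0.63 at day 7, difference 2.45). Above 0 on both days, and more so at day 7, were SOX21 (3.50 at day 3, 4.46 at day 7, difference -0.96) and TTYH1 (2.53 at day 3, 3.52 at day 7, difference -0.98). Above 0 at day 3 and below 0 at day 7 were DLK1 (3.09 at day 3, -0.80 at day 7, difference 3.89), ID2 (0.32 at day 3, -0.69 at day 7, difference 1.01) and TMEM64 (2.90 at day 3, -0.47 at day 7, difference 3.37).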

How the results depend on the processing

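Of the 368 named genes past the threshold at day 3, 283 kept their call in every alternative in which they were tested and 85 lost it in at least 1 (12 of the 368 did not reach the filter at 5 FPKM and have no value there), most often when a library was left out; no named gene past the threshold changed sign. With each day 3 library left out in turn, the count of changed genes ran from 1998 to 2512, that of higher genes from 726 to 1002 and that of lower genes from 1233 to 1510. For the difference between the effects of days 3 and 7 these counts ran from 1973 to 2363 in all, from 912 to 1066 higher and from 1061 to 1336 lower, and for days 3 and 15 the count of higher differences ran from 1121 to 1260. Rescaling to nuclear genes gave 2539 higher genes at day 3. Such losses come with fewer samples; other causes were not tested.

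The replicate difference in the labelled knockout correlated with that in wild type at r = 0.037 over genes, so no deviation shared by replicate number was seen. Whether samples of the same number were handled together is not known from this value. With the replicate block 2947 genes passed. The values hold no fragment counts, so counting error of low genes could not be given.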
